A study of Mus musculus with 8 samples.

Results

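The 4 libraries described here, of 8 in the study, compared embryonic hearts of mice lacking LncSync with those of wild-type mice. LncSync is a long noncoding RNA, a transcript that is not translated into protein. All libraries from embryos at e13.5 (embryonic day, counted from conception) were taken, and all genes were examined. The WT group was wild type and the KO group was homozygous for the LncSync null allele (LncSync-/-), each with 2 libraries. Both groups were strain C57BL/6, and their source was heart, with cardiomyocyte given as the cell type. The labels name no treatment. The other 4 libraries came from adult WT and KO hearts and served to estimate the spread and to set e13.5 values beside adult ones. For each library 200 ng of total RNA was reverse transcribed and amplified with Smart-seq2, a method that copies RNA by its poly(A) tail. The labels give neither the design of the null allele nor the number of embryos or litters behind a library, so p-values measure only the spread between these libraries.

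At e13.5 the heart has 4 chambers. Muscle trabeculae line the ventricles inside a growing compact wall, cardiomyocytes still divide, and blood is supplied by both yolk sac and liver erythroid cells. Besides cardiomyocytes the organ holds endocardium, epicardium, cushion mesenchyme, macrophages and blood cells. Processed pseudogenes are copies of spliced messenger RNAs that were pasted back into the genome. Genes of ribosomal proteins and tubulins have many, and a short read often fits both the copy and its source gene.

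Total counts ran from 16495084 to 20395600 per e13.5 library, and 16623 genes were tested. All 11 cardiomyocyte markers set for the check, from Actc1 and Tnnt2 to Ttn and Nkx2-5, were detected in every library, between 4.69 and 18963 CPM (counts scaled to an equal effective library size). Each of the 4 libraries held transcripts of Xist and of the Y chromosome (Ddx3y, Eif2s3y, Kdm5d, Uty). Libraries with the same number stood closer together than libraries of the same genotype: across genes, log2 CPM correlated at 0.960 between WT library 1 and KO library 1 and at 0.954 between the second libraries, against 0.913 within WT and 0.918 within KO. Haemoglobin transcripts took 4.65% and 2.89% of the WT counts and 15.48% and 3.19% of the KO counts. Long transcripts were higher in the second libraries. Of 4 sets of genes of like number, the set with the longest exons (4146 genes, median 8734 bases) had a median log2 difference of library 2 from library 1 of 0.96 in WT and 0.54 in KO, and the shortest set one of -0.60 and -0.41. Between genotypes the longest set had a median log2 fold change of -0.27 (-0.02 within the first library number and -0.36 within the second), and the shortest set one of 0. Results below therefore come with the value of each library, and the part of blood content and transcript length in them was not tested. No gene bears the name LncSync in the annotation used here (GENCODE vM21). Its level was therefore not read under that name, and the genotype labels were not checked on the targeted gene. Sync, which encodes the muscle intermediate filament protein syncoilin, was at 1.43 and 1.55 CPM in WT and 0.625 and 3.01 CPM in KO, and the genotypes overlapped.

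KO and WT hearts differed in 12 genes (0.0722% of those tested). With edgeR's quasi-likelihood test and Benjamini-Hochberg adjustment over all genes tested, 10 genes were higher in KO (0.0602% of genes tested) and 2 were lower (0.012%). Before adjustment 398 genes (2.39%) had a p below 0.05, 104 higher (0.626%) and 294 lower (1.77%). The median log2 fold change over all genes was -0.07, which median-of-ratios scaling moved to 0.05. Of the 12 changed genes, 9 were annotated as pseudogenes, against 413 of the 16623 tested. The count of lower genes rested on WT library 1, without which 25 genes were lower, and on KO library 1, without which 1 was. Without WT library 2, 6 genes were higher.

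**Figure D1:**
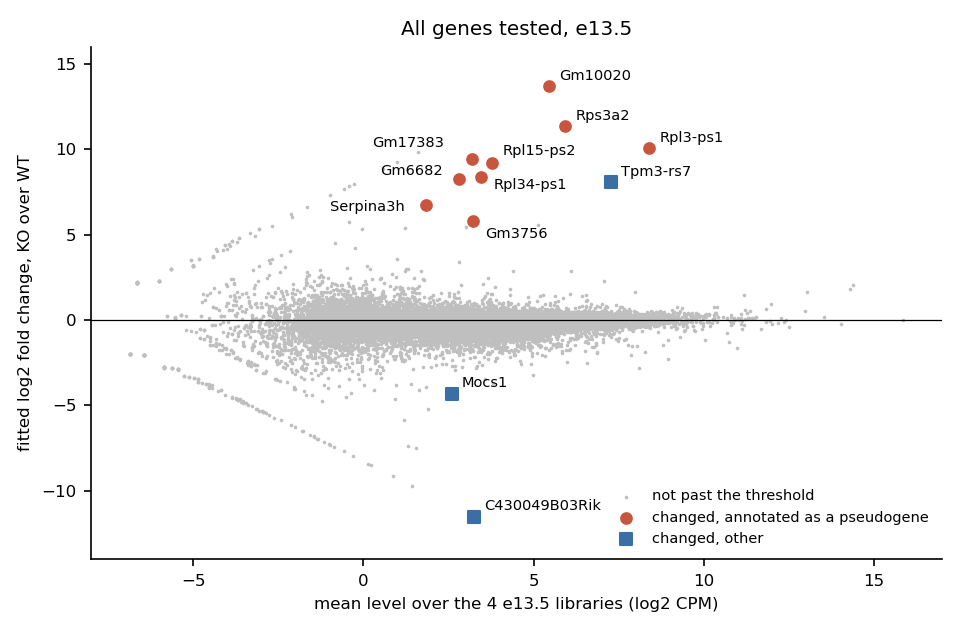
Each point is a gene, with the mean level over the 4 e13.5 libraries (log2 CPM) on the x axis and the fitted log2 fold change of KO over WT on the y axis; 79 tested genes at 0 in all 4 libraries are not drawn. Red circles are the 9 changed pseudogenes and blue squares the 3 other changed genes. C430049B03Rik and Mocs1 lie below 0, and the 10 genes that rose lie above 5.

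The 10 genes that rose were near-identical copies of other genes, found by aligning their transcripts to all others. Rpl3-ps1, Rps3a2, Rpl34-ps1, Rpl15-ps2 and Gm10020 matched Rpl3, Rps3a1, Rpl34 and Rpl15, whose products build the ribosome, and Tpm3-rs7 matched Tpm3, an actin-binding tropomyosin. Gm17383, Gm3756 and Gm6682 matched Tuba1b or Tuba1c, which encode alpha-tubulins, the building blocks of microtubules. Serpina3h matched Serpina3i, a member of a cluster of serine protease inhibitor genes. Identity to the closest protein coding gene ran from 93.64% for Serpina3h to 99.84% for Rpl3-ps1, which differed from Rpl3 at 2 of 1210 aligned bases. Tpm3-rs7 is annotated as protein coding and the other copies as pseudogenes.

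The 3 pairs of sequence below show how little separates the copies with the most KO counts from their closest genes. They are 60-base stretches of GENCODE vM21 transcripts (GRCm38, the same assembly as mm10), 5′ to 3′. Each pair was taken from the coding sequence of the closest gene and the matching part of the copy, and capitals mark the bases that differ within a pair.
Rpl3-ps1, chrX:13202598-13202657, plus strand: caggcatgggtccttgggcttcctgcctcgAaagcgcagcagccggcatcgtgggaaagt
Rpl3, chr15:80082500-80082559, minus strand: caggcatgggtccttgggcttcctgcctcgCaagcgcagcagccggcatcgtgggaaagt
Rps3a2, chr14:88123124-88123183, minus strand: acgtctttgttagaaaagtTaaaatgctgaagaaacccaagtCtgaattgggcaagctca
Rps3a1, chr3:86138099-86138530, minus strand, across an intron: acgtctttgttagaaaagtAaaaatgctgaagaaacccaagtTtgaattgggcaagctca
Tpm3-rs7, chr14:113314744-113314803, plus strand: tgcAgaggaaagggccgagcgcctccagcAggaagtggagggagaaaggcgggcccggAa
Tpm3, chr3:90079800-90079859, plus strand: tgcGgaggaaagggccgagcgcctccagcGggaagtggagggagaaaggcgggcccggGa
Over the whole alignment the members differ at 2 of 1210 bases for Rpl3-ps1, 4 of 792 for Rps3a2 and 13 of 2108 for Tpm3-rs7, which also has 6 gap bases. Within the aligned part, a read that covers none of these differences fits both members of its pair, so the deposited estimated counts can divide such reads between them. This holds for both genotypes. The reads themselves were not examined, so whether their division differed between WT and KO was not tested.

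Rpl3-ps1 held most of the counts of its family in KO and almost none in WT. It had 0.783 and 0.448 CPM in WT and 692 and 652.3 CPM in KO, a log2 fold change of 10.09 ± 0.77 (SE, n = 2 per genotype; adjusted p = 0.00376, edgeR). Rpl3 itself was at 1015 and 610.7 CPM in WT and at 163.3 and 172.6 CPM in KO, so the libraries did not overlap, although its log2 fold change of -2.27 ± 0.48 did not pass (adjusted p = 0.519, edgeR). It did pass with DESeq2 (adjusted p = 0.0191) and in edgeR without a filter on low counts (0.0434). The share of Rpl3-ps1 in the counts of the 21 family members was 0.0771% and 0.0730% in WT and 80.8% and 78.9% in KO, with 95% Wilson intervals of 80.2 to 81.48% and 78.4 to 79.48% in KO, which cover counting error only. The family sum was 1017 and 613.5 CPM in WT and 856.1 and 826.4 CPM in KO. These sums overlapped, and the sum had a log2 fold change of 0.05 ± 0.51.

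The estimated counts of Tpm3 and its copy also stood in another proportion in KO than in WT. Tpm3-rs7 had 1.15 and 1.07 CPM in WT and 344.8 and 267.7 CPM in KO, a log2 fold change of 8.10 ± 0.64 (adjusted p = 0.00376, edgeR). Tpm3 was at 347.7 and 294.6 CPM in WT and 129.4 and 107.4 CPM in KO, with log2 ratios of -1.43 and -1.46 within the library numbers (fitted value -1.44 ± 0.46, adjusted p = 1, edgeR). Tpm3-rs7 made up 0.330% and 0.361% of the counts of the pair in WT and 72.7% and 71.4% in KO. Their sum was 348.8 and 295.7 CPM in WT and 474.2 and 375.1 CPM in KO. Both KO sums lay above both WT sums, but the log2 fold change of 0.40 ± 0.46 did not pass the test.

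Among the other ribosomal protein families the copy held a smaller share in KO. Rps3a2 had 1 count in each WT library and 109.1 and 132.8 CPM in KO, and its share of the Rps3a1 family was 0.00542% and 0.00668% in WT and 17.7% and 21.6% in KO. Its KO counts stood to the 2 WT counts in a scaled ratio of 3135 (95% counting interval 867.4 to 25890; adjusted p = 0.00256, edgeR). Gm10020 had 0 counts in both WT libraries against 82.8 and 92.5 CPM in KO, and was at least 1501-fold higher, with 3 counts for both WT libraries together as the floor (adjusted p = 0.0058, edgeR). Together with Rpl15-ps2, which had 2 WT counts and 27.4 and 27.8 CPM in KO, it made up 0.0105% and 0% of the Rpl15 family in WT, where 0 of 14069 counts allows up to 0.0213%, and 14.2% and 22.3% in KO. Rpl34-ps1 had 3 WT counts and 18.1 and 26 CPM in KO, and its share of the Rpl34 family was 12.3% and 15.4% there, against 0.0184% and 0.0427% in WT. Of the source genes, Rps3a1 was at 850.2 and 515.4 CPM in WT and 505.7 and 481.8 CPM in KO, and Rpl34 at 250.6 and 161.4 CPM in WT and 128.9 and 142.96 CPM in KO. Both were lower in KO without overlap, with log2 fold changes of -0.47 ± 0.47 and -0.60 ± 0.48 that did not pass the test. Rpl15 had a log2 fold change of 0.07 ± 0.47. The remaining members of its family, copies that were not called, were together lower in KO without overlap. Their sum was 360.1 and 193.9 CPM in WT and 158.6 and 87.7 CPM in KO. The sum of the whole Rpl15 family was 874.7 and 484.5 CPM in WT and 779.3 and 540.1 CPM in KO, and the genotypes overlapped.

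The alpha-tubulin copies were a small part of an abundant family. Gm17383, Gm6682 and Gm3756 reached 16.9 and 19.4, 18.7 and 9.26, and 19.9 and 16.7 CPM in KO, from at most 0.415 CPM in WT. Together they were 0.0110% and 0.0107% of the counts of the Tuba1b family in WT and 1.12% and 1.49% in KO. The sum of the 11 members was 4618 and 2581 CPM in WT and 4956 and 3055 CPM in KO, with overlapping libraries. Tuba1b and Tuba1c had log2 fold changes of -0.04 ± 0.56 and 0.06 ± 0.48, and the sign for Tuba1b turned under median-of-ratios and upper quartile scaling. The rise of each of these 3 copies lost its call without WT library 2.

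Serpina3h differed from the rest in that its closest gene moved in the same direction. It had 3 WT counts and 10.1 and 4.15 CPM in KO, a scaled ratio of 109 (95% counting interval 36.9 to 531.9; adjusted p = 0.0492, edgeR). Serpina3i was at 0.184 and 0.413 CPM in WT and 5.63 and 1.74 CPM in KO, and passed the test without a filter on low counts (adjusted p = 0.0189, edgeR). The 5 members together had 5.62 and 3.68 CPM in WT and 32.9 and 10.8 CPM in KO, without overlap (log2 fold change 2.23 ± 0.91, adjusted p = 1, edgeR). The call for Serpina3h was lost without WT library 1, without WT library 2 or without KO library 1, where the adjusted p was 0.0609, 0.203 and 0.0739.

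**Figure D2:**
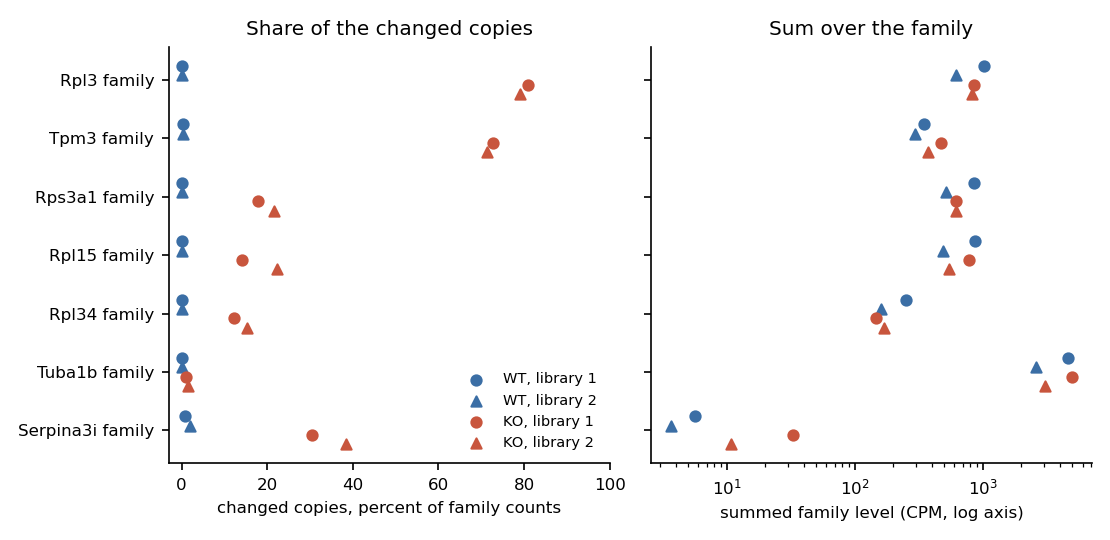
The left panel gives, for 7 sequence families and each e13.5 library, the percentage of the family's counts that fell on the changed copies; the right panel gives the summed level of the family in CPM on a log axis. Blue is WT, red is KO, circles are library 1 and triangles library 2. The share rises from under 2% to between 71.4% and 80.8% in KO for the Tpm3 and Rpl3 families, while the sums of 5 of 7 families overlap between genotypes.

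When the counts of each family were added up and the same edgeR fit was run on 16604 rows, 0 genes were higher or lower in KO at an adjusted p below 0.05. This rested on WT library 1, without which 14 were lower, and on the filter on low counts, without which 18 were higher and 53 lower. Before adjustment, 92 rows were higher and 291 lower at p below 0.05, and DESeq2 called 5 higher and 11 lower on the same table. The smallest adjusted p in the edgeR fit was 0.0641, shared by C430049B03Rik and Mocs1, whose log2 fold changes hardly moved (-11.51 ± 1.01 and -4.31 ± 0.50). Their unadjusted p-values were 4.15e-06 and 7.72e-06, against 4.18e-06 and 7.82e-06 before summing (edgeR). Their calls were thus lost through the adjustment, once the copies ranked among them were gone. The families were built from genes already called, so the loss of the copies' calls is not a separate test of them. All 10 copies that rose at e13.5 were also higher in both adult KO libraries than in both adult WT libraries, and 5 of them passed the test in adults. Rpl3-ps1 took 85.3% and 81.1% of its family in adult KO and 0 counts in adult WT. Tpm3-rs7 took 55.3% and 54.5% in adult KO and 0 counts in adult WT.

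C430049B03Rik was the gene that fell furthest. It is a noncoding transcript on the minus strand of the X chromosome (chrX:53055046-53057190, GENCODE vM21, GRCm38), with no near-identical gene in the search. It had 19.4 and 18.6 CPM in WT (420 and 540 counts) and 0 counts in both KO libraries, so it was at least 260.3-fold lower, with the same floor for the KO group (adjusted p = 0.0116, edgeR). The 2 WT libraries lay close together. Without any 1 of the 4 libraries the adjusted p ran from 0.00863 to 0.0161; in a fit of the 4 e13.5 libraries alone it was 0.057. Adult WT hearts had 0.349 and 0.413 CPM of this transcript, and adult KO hearts had 0 counts. Since the labels do not give the design of the null allele, whether the allele removes this transcript itself was not tested.

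This transcript lies just before a cluster of microRNA genes on the same strand. MicroRNAs are short RNAs that lower the stability and translation of messages matched by their seed, bases 2 to 8, and miR-322 and miR-503 belong to the family named for miR-16, known for restraining cyclins and other cell cycle genes. The gene of Mir322 begins 696 bases beyond the end of C430049B03Rik, that of Mir503 991 bases and that of Mir351 1692 bases beyond it. The mature sequences of the 2 nearest, from RefSeq (GRCm38.p6), share the first 6 bases of the seed, which is in capitals:
mmu-miR-322-5p: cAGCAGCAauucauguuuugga
mmu-miR-503-5p: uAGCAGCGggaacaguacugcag
The libraries carried 0 counts for all 13 microRNA genes within 500 kb, in each e13.5 library, and a method that copies poly(A) RNA does not measure mature microRNAs, so their levels are unknown here. A list of 11 tested genes, C430049B03Rik with H19 and known or proposed targets of these microRNAs, held no other changed gene. Smurf2, a ubiquitin ligase of TGF-beta signalling, was at 6.50 and 10.9 CPM in WT and 5.94 and 6.01 CPM in KO (log2 fold change -0.54 ± 0.42), and Chek1, a checkpoint kinase, at 16.1 and 16.01 CPM in WT and 22.3 and 23.1 CPM in KO (0.50 ± 0.54). These 2 mark the lowest and highest fold change among the 10 other genes of the list.

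Of 33 genes within 500 kb of C430049B03Rik, 6 were tested, and none of them passed. Plac1, a gene best known from the placenta, is the next gene upstream on the same strand, with a gap of 12804 bases. It was at 4.89 and 2.75 CPM in WT and 17 and 25.8 CPM in KO, without overlap (log2 fold change 2.49 ± 0.59, adjusted p = 1, edgeR; 0.0491 without a filter on low counts). Fam122b, the gene after Plac1, was at 17.4 and 20.9 CPM in WT and 38.1 and 40.3 CPM in KO (1.03 ± 0.42, adjusted p = 1, edgeR). Both lay higher in KO within each library number. On the other side Hprt and Phf6 lay nearer than Fam122b, with gaps of 33386 and 98102 bases against 186224. For the other 4 tested genes the genotypes overlapped: the log2 fold change was 0.41 ± 0.46 for Mospd1, 0.57 ± 0.54 for Hprt, a purine salvage enzyme, -0.96 ± 0.74 for Phf6 and 0.08 ± 0.49 for Gpc3, a cell surface proteoglycan.

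**Figure D3:**
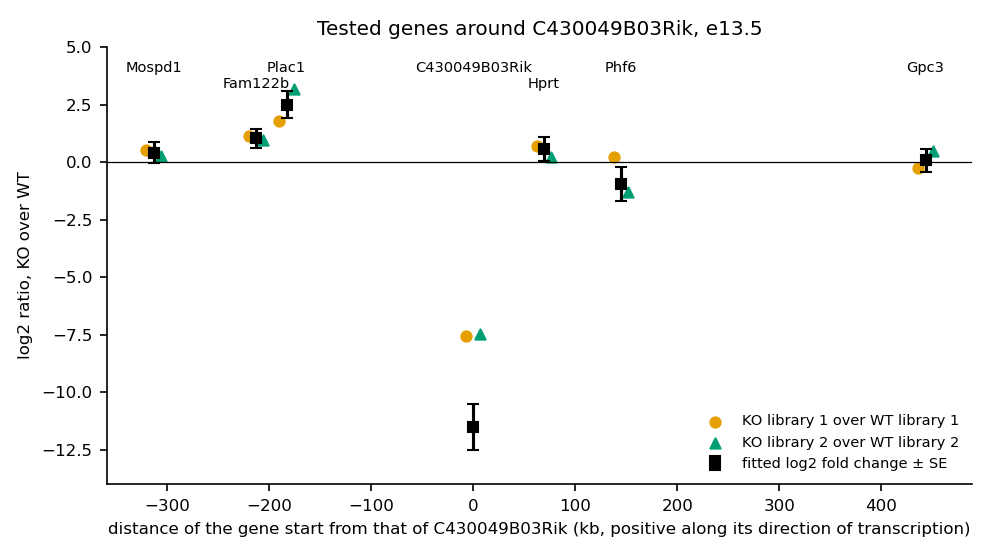
The x axis gives the distance of each gene's start from that of C430049B03Rik in kb, positive in the direction in which it is transcribed, and the y axis the log2 ratio of KO over WT. Black squares are fitted log2 fold changes with their standard error, and the coloured points the ratio within each library number, on log2 CPM with a prior count of 2, which limits how low C430049B03Rik can lie. Plac1 and Fam122b stand above 0 in both pairs of libraries.

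Mocs1 was the other gene that fell. It encodes the enzymes of the first step of molybdenum cofactor synthesis, which sulfite oxidase, xanthine oxidase and aldehyde oxidase need. Mocs1 (chr17:49428362-49455435, GRCm38) was at 11.7 and 11.2 CPM in WT and 0.500 and 0.633 CPM in KO, with 8 and 16 counts in the KO libraries. The log2 fold change was -4.31 ± 0.50 (adjusted p = 0.0186, edgeR), with -4.29 and -3.94 within the library numbers. In a fit of the 4 e13.5 libraries alone it was -4.30 and did not pass (adjusted p = 0.308, edgeR). The call was lost without KO library 1 (adjusted p = 0.116, edgeR) and without KO library 2 (0.0955), while the fold change stayed between -4.49 and -4.14 when any 1 library was left out.

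No other gene of the cofactor pathway passed the test. Of 13 listed genes 9 were tested, and Mocs1 was the 1 that fell. Mocs2, which acts in the second step, was at 38.7 and 20.9 CPM in WT and 37.4 and 24.5 CPM in KO. Gphn, which encodes gephyrin of the last steps, was at 7.97 and 13.9 CPM in WT and 4.81 and 11.2 CPM in KO, and the genotypes overlapped for both (log2 fold changes 0.05 ± 0.45 and -0.45 ± 0.52). Daam2, whose annotation ends 586 bases from Mocs1 on the opposite strand, was at 4.66 and 12.8 CPM in WT and 3.63 and 5.03 CPM in KO (-1.01 ± 0.61), and Kif6, a kinesin, had a log2 fold change of -1.84 ± 0.92. In adults Mocs1 was at 17.8 and 15.3 CPM in WT and 20.03 and 16.2 CPM in KO. The difference between the e13.5 and adult fold changes was -4.44 ± 0.65 on the log2 scale (adjusted p = 0.273, edgeR). Over all genes, 0 passed the test of the genotype by age interaction after adjustment, 265 (1.59%) had an unadjusted p below 0.05, and DESeq2 called 7. Without WT library 1 edgeR called 5 genes in this test, and without KO library 2 it called 2.

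Protein coding genes next to the threshold were few. Among genes with at least 5 CPM in the higher group and no overlap between genotypes, B3gnt3 and Wdfy1 came closest. B3gnt3, a glycosyltransferase that extends sugar chains, was at 6.04 and 5.79 CPM in WT and 0.375 and 0.317 CPM in KO (log2 fold change -4.08 ± 0.62, adjusted p = 0.0795, edgeR); without WT library 1 its adjusted p was 0.048. Wdfy1, an endosomal adaptor of Toll-like receptor signalling, was at 4.42 and 5.54 CPM in WT and 37.9 and 36.8 CPM in KO (2.90 ± 0.45, adjusted p = 0.0822, edgeR). DESeq2 called both, as did edgeR without a filter on low counts.

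Apart from Rpl3, the other genes of this kind had adjusted p-values of 0.685 or more in the edgeR test. None of them, nor B3gnt3 and Wdfy1, was itself searched for near-identical copies. On the higher side, Erlec1, a lectin of endoplasmic reticulum quality control, was at 13.9 and 17.9 CPM in WT and 45.4 and 36.4 CPM in KO. Fah, the last enzyme of tyrosine breakdown, was at 4.42 and 1.86 CPM in WT and 8.31 and 8.43 CPM in KO. Tsku, a secreted leucine-rich repeat protein, was at 2.12 and 3.55 CPM in WT and 8.06 and 9.10 CPM in KO. Hddc3, Cd14, P2ry2, Zrsr1, Adh6b, Thg1l and Grap2 made up the rest of the higher group beside Plac1, with log2 fold changes from 1.37 for P2ry2 to 2.32 for Grap2. In all of these but P2ry2, KO library 1 lay above KO library 2, as for Cd14 with 29.2 and 7.76 CPM.

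On the lower side, Tob2, an antiproliferative protein, was at 60.2 and 61.3 CPM in WT and 9.06 and 20.7 CPM in KO (log2 fold change -2.03 ± 0.48). Efnb3, a membrane-bound ligand of Eph receptors, was at 90.7 and 90.4 CPM in WT and 11.6 and 35.3 CPM in KO (-1.94 ± 0.55). Angpt1, the Tie2 ligand through which heart muscle signals to endothelium, was at 37.9 and 44.9 CPM in WT and 14.9 and 17.3 CPM in KO. Its log2 ratio was -1.34 and -1.37 within the library numbers (-1.36 ± 0.40). Kcnj3, a subunit of the atrial acetylcholine-activated potassium channel, was at 6.45 and 10.9 CPM in WT and 2.50 and 2.41 CPM in KO (-1.82 ± 0.47). Plac9b, Il15, Pgm5, Pfas and Dgke had log2 fold changes between -2.55 for Plac9b and -1.82 for Dgke. Aldh5a1 was at 2.77 and 23.1 CPM in WT and 2.25 and 1.62 CPM in KO, so its difference came from WT library 2. Its log2 fold change was -2.75, with an adjusted p of 0.0205 without WT library 1 and 0.00588 without a filter on low counts (edgeR).

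**Figure D4:**
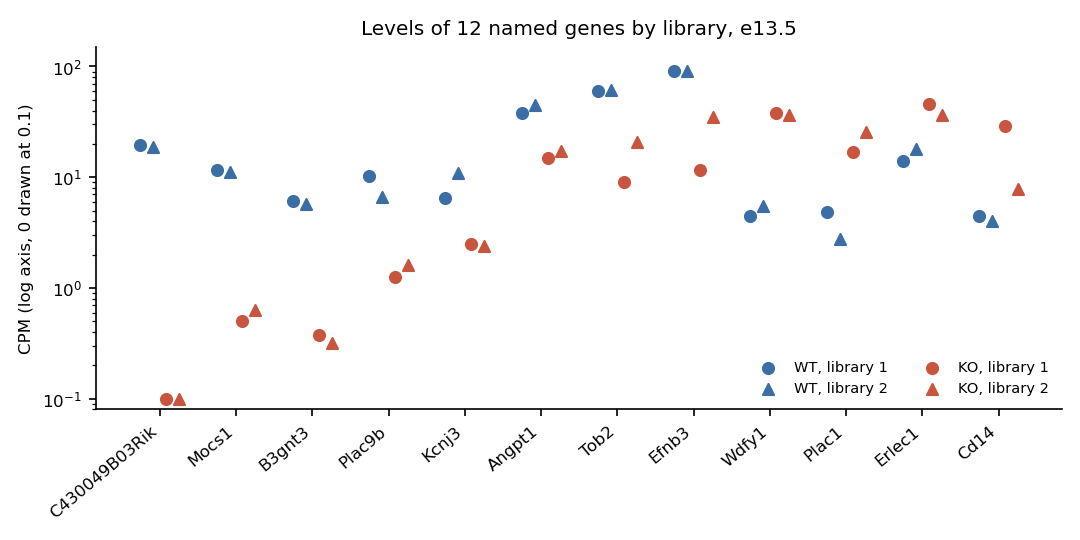
CPM on a log axis in each e13.5 library for 12 genes, with WT in blue, KO in red, circles for library 1 and triangles for library 2, and 0 drawn at 0.1. C430049B03Rik, at 0 in both KO libraries, and Mocs1 passed the test, and the other 10 genes did not. The genotypes do not overlap for any of the 12, by the rule that chose the genes beyond the first pair, while the KO libraries of Efnb3, Tob2 and Cd14 lie apart.

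Lists of genes for heart muscle, chambers, metabolism and other cell types were described by their counts, since their members were chosen with results in view. In 36 lists the only changed genes were Mocs1 and C430049B03Rik. The mean log2 CPM of a list's members was higher in both KO libraries than in both WT libraries for 3 lists, lower for 4 and overlapping for 29. Over the fits that leave out 1 library each, the median fold change of 32 of the 36 lists took both signs. Among the 4 lower lists, 2 were those that hold Mocs1 and C430049B03Rik. For comparison, 43.2% of all genes tested had a positive fold change, 23.9% were higher in KO within both library numbers and 27.9% lower, and the libraries of 6.77% lay higher and of 8.65% lower in KO without overlap.

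No contractile gene passed the test, and single libraries set the direction of the list. Of 35 sarcomere and Z-disc genes 0 passed the test, 9 had positive and 26 negative fold changes, with a median of -0.16. The median was 0.46 without WT library 1, -0.42 without WT library 2, -0.83 without KO library 1 and 0.09 without KO library 2. Myh6, the alpha myosin heavy chain, was at 1971 and 2870 CPM in WT and 1224 and 777.9 CPM in KO, without overlap (log2 fold change -1.27 ± 0.57, adjusted p = 1, edgeR). Myh7, the beta myosin heavy chain, was at 602 and 5482 CPM in WT and 1000.2 and 921.8 CPM in KO, so 1 WT library lay above and the other below both KO libraries. Xirp1, an actin-binding protein of cell junctions, was at 20.9 and 113.6 CPM in WT and 22.9 and 17.8 CPM in KO. Among 15 genes of the intercalated disc 12 were negative (median -0.69), and the median was 0.19 without WT library 2 and -1.05 without WT library 1. Vcl, which encodes vinculin, was at 26.4 and 176.2 CPM in WT and 16.6 and 43.2 CPM in KO, and Gja1, the gap junction protein connexin 43, at 160.4 and 327.6 CPM in WT and 133.8 and 105.5 CPM in KO.

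Ion channel genes were mostly lower in KO. Of 27 potassium, sodium and pacemaker channel genes 0 passed the test, 20 had negative fold changes (median -0.48), and 8 were lower in KO without overlap, 2 higher. Their mean log2 CPM was 2.09 and 2.35 in WT and 1.52 and 1.89 in KO. The median was -0.21 without WT library 1, -0.30 without KO library 1 and -0.70 without KO library 2. Beside Kcnj3, Atp1b1, a subunit of the sodium pump, was at 272.9 and 297.1 CPM in WT and 155 and 221.8 CPM in KO (log2 fold change -0.60 ± 0.41). Of 27 calcium handling genes 22 were negative (median -0.34), and the median turned to 0.22 without WT library 2. There, Slc8a1, the sodium-calcium exchanger, was at 27.6 and 119.1 CPM in WT and 27.4 and 27.5 CPM in KO.

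Trabecular and atrial markers were mostly lower in KO, and the order of the lists changed with the libraries. Of 19 trabecular genes 0 passed the test, 18 had negative fold changes (median -0.62), and 13 were lower in KO within both library numbers. The mean log2 CPM was 4.67 and 5.16 in WT and 4.28 and 4.14 in KO. Without WT library 2 the median was -0.12, without KO library 2 it was -0.99, and without the other libraries it was -0.56 and -0.43. Irx3, a transcription factor of trabecular and conduction muscle, was at 0.553 and 4.58 CPM in WT and 0.250 and 0.475 CPM in KO (log2 fold change -2.77 ± 0.90, adjusted p = 1, edgeR; 0.0371 without a filter on low counts). Atrial markers had 16 of 19 negative values (median -0.57), with 3 genes lower in KO without overlap; Kcnj3 and Angpt1 belong to them. That median was 0.52 without WT library 1, -0.997 without WT library 2, -1.26 without KO library 1 and -0.22 without KO library 2. Ventricular and compact layer markers had 10 of 14 negative values, but the median within the library numbers was 0.46 for the first and -0.64 for the second, and the fitted median of -0.26 was positive without WT library 1 (0.12), WT library 2 (0.35) or KO library 2 (0.17).

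Cell cycle genes leaned upward by a small amount. Of 42 genes 0 passed the test, 29 had positive fold changes (median 0.27), and 25 were higher in KO within both library numbers. The mean log2 CPM was 6.39 and 6.32 in WT and 6.56 and 6.41 in KO. The median was -0.02 without KO library 1, 0.12 without WT library 2 and 0.59 without WT library 1. Aurkb, a mitotic kinase, was at 48.2 and 31.7 CPM in WT and 78.6 and 50.3 CPM in KO (log2 fold change 0.69 ± 0.43, adjusted p = 1, edgeR). Cdkn1c, an imprinted inhibitor of the cell cycle, was at 19.2 and 192.7 CPM in WT and 17.3 and 21.8 CPM in KO, and only WT library 2 stood apart. Its log2 fold change of -2.44 had an adjusted p of 0.048 without WT library 1 and 0.0178 without a filter on low counts, and turned to 0.047 without WT library 2 (edgeR).

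**Figure D5:**
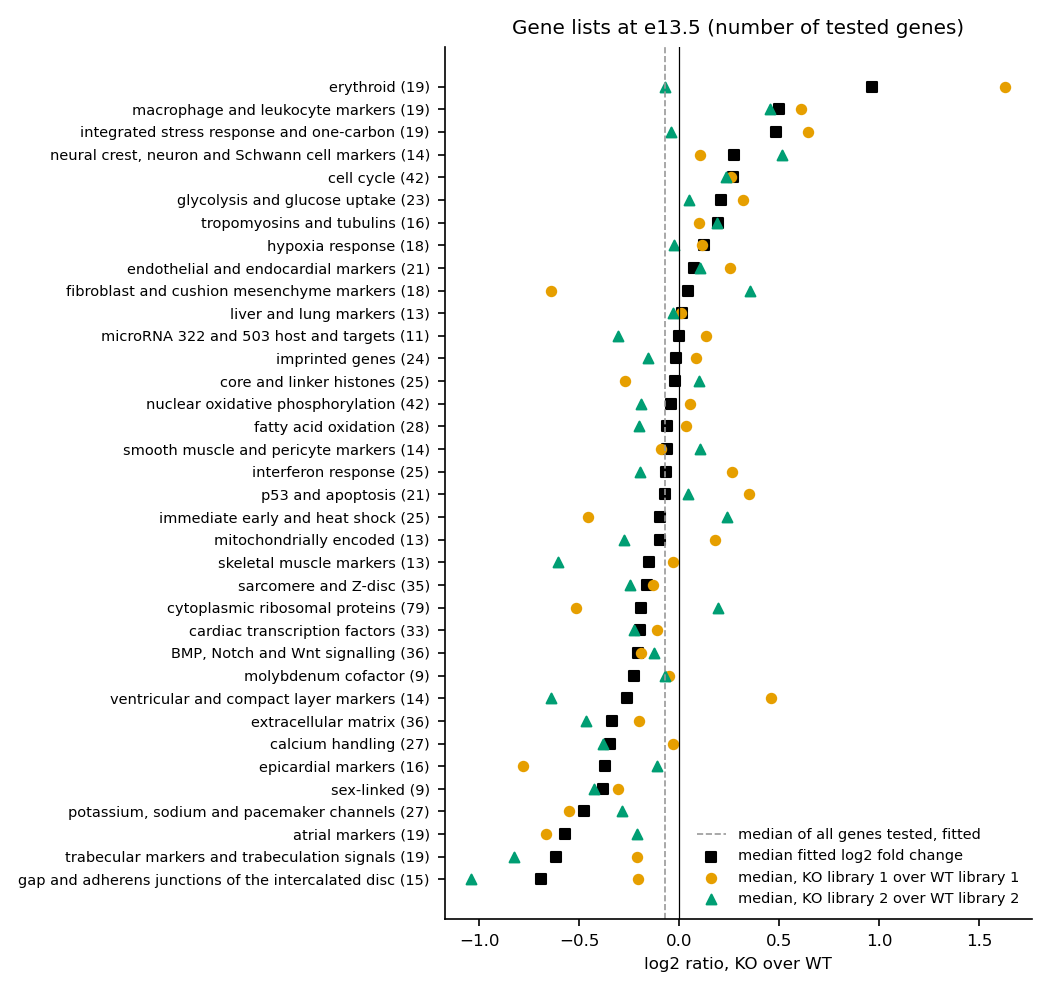
For each of 36 gene lists, with the number of tested members in brackets, the x axis gives the median log2 ratio of KO over WT: black squares for the fitted fold changes, circles and triangles for the ratios within library numbers 1 and 2. The dashed line is the median of all genes tested, -0.07. The circle and the triangle lie far apart for erythroid genes, ribosomal proteins and ventricular markers, and close together for macrophage markers and cell cycle genes.

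Macrophage and leukocyte markers lay higher in KO as a sum, and 0 of them passed the test. Of 19 genes 15 had positive fold changes (median 0.50), 12 were higher in KO within both library numbers and 0 lower within both, and 10 were higher in KO without overlap. Summed over the list the level was 120.5 and 151.2 CPM in WT and 220.5 and 197 CPM in KO. None of the 19 was at 0 in all 4 libraries. Adgre1, which encodes the macrophage antigen F4/80, was at 2.03 and 2.41 CPM in WT and 3.88 and 6.88 CPM in KO (log2 fold change 1.28 ± 0.53, adjusted p = 1, edgeR). Lyz2, a lysozyme of macrophages, was at 32.6 and 24.1 CPM in WT and 62.8 and 15.8 CPM in KO. In RNA pooled from many cells, more cells of a type and more RNA per cell cannot be told apart. The labels give heart as the source and cardiomyocyte as the cell type, and the share of other cells in these libraries was not tested. The median was 0.94 without WT library 2.

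As a list, erythroid genes were high in a single library, though not every member was. Hba-a1, an alpha-globin, was at 10801 and 5586 CPM in WT and at 59854 and 9413 CPM in KO. Hba-a2, another alpha-globin, was at 8798 and 4493 CPM in WT and at 8402 and 1491 CPM in KO. Neither globin gene was searched for near-identical copies, and whether reads were divided between them was not tested. Of 19 tested genes 16 had positive fold changes (median 0.97), but the median within the second library number was -0.07, and the fitted median was -0.50 without KO library 1, 1.95 without WT library 1 and 1.64 without KO library 2. Markers of fibroblasts, endothelium, smooth muscle and epicardium had list medians from -0.37 for epicardium to 0.07 for endothelium, none with a stable sign. Leaving out 1 library moved the fibroblast median from -1.12 (without KO library 2) to 0.62 (without WT library 2), and its values within the library numbers were -0.64 and 0.36. The endothelial median moved from -0.56 to 0.59 on the same 2 omissions, the smooth muscle one from -0.47 (without KO library 2) to 0.18 (without WT library 1), and the epicardial one turned to 0.26 without WT library 1. Vim, a mesenchymal intermediate filament, was at 929 and 943.8 CPM in WT and 1007 and 1389 CPM in KO, and Eng, an endothelial receptor of the TGF-beta family, at 270.3 and 270.1 CPM in WT and 327 and 323.5 CPM in KO. Extracellular matrix genes had 26 of 36 negative values (median -0.34). Fn1, fibronectin, was at 100.6 and 875.1 CPM in WT and 114.3 and 156.8 CPM in KO, and the list's median was 0.72 without WT library 2, -0.86 without WT library 1, -0.06 without KO library 1 and -1.70 without KO library 2.

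Of 13 tested skeletal muscle markers 4 had positive and 9 negative fold changes, from -3.18 for Myh8 to 1.72 for Chrng, a subunit of the fetal acetylcholine receptor, with a median of -0.15. Leaving out 1 library moved the median from -1.03 (without KO library 1) to 0.45 (without WT library 1); it was -0.44 without WT library 2 and 0.31 without KO library 2. Myl1, Myh8 and Actn3 were lower in KO without overlap, and Pax3 was higher; Actn3, Pax3 and Chrng were named after their values were seen. Myl1, a fast myosin light chain, was at 833.6 and 129.5 CPM in WT and 104.5 and 34.2 CPM in KO (log2 fold change -2.80 ± 0.84, adjusted p = 1, edgeR; 0.00169 without a filter on low counts). Myh8, the perinatal myosin heavy chain, was at 1.94 and 1.27 CPM in WT and 0.188 and 0.158 CPM in KO. Their log2 ratios within the library numbers were -2.99 and -1.92 for Myl1 and -2.81 and -2.39 for Myh8.

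Ribosomal protein genes were tested in large number because several of the changed copies derive from them. Of 79 genes 74 had negative fold changes with a median of -0.19, and 0 passed the test. The mean log2 CPM was 8.55 and 7.90 in WT and 7.95 and 8.06 in KO, so WT library 1 stood above the other 3. The median ratio was -0.52 within the first library number and 0.19 within the second, and the fitted median was 0.32 without WT library 1 and -0.46 without WT library 2. Metabolic lists had no stable direction, with medians of -0.04 for nuclear oxidative phosphorylation, -0.06 for fatty acid oxidation and 0.21 for glycolysis. Without KO library 1 these medians were -0.82, -0.64 and -0.35, without WT library 1 they were 0.76, 0.67 and 0.87, without WT library 2 -0.41, -0.34 and -0.03, and without KO library 2 0.47, 0.41 and 0.66.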

How the data were processed

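Heart RNA was sequenced from embryos at e13.5 and adults of both genotypes, 2 libraries per group. The authors deposited expected counts per gene, made with RSEM on mm10 per the submitters' processing notes; for its version, for the aligner and for the annotation: not given in the sources used here. The values are whole numbers with differing totals and were taken as unscaled estimates. Every library and every column was used. Of 51826 genes, 51633 had a name in GENCODE vM21.

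Genes passing filterByExpr were fitted in edgeR 4.0.16 (R 4.3.3, limma 3.58.1) with TMM scaling, a quasi-likelihood model of 4 group means over all 8 libraries and no replicate term (4 residual degrees of freedom). All tests were two-sided; genes with an adjusted p below 0.05 over 16623 genes are called changed. The standard error of a fold change is its size over the square root of F. On simulated data of 16088 genes for the e13.5 comparison, this fit recovered 15 of 74 genes changed 4-fold, 37 of 62 changed 8-fold and 56 of 64 changed 16-fold, with 5 false calls. The simulation gave every gene the same dispersion and held no difference between library numbers, so these rates may not carry over to the real libraries. CPM used TMM-scaled sizes, in which 3 counts are 0.103 to 0.188 CPM per e13.5 library. Families joined each changed gene with genes whose transcripts matched it at 90% identity or more over at least 50% of its length (BLAST 2.17.0, Python 3.11.15). Plots used matplotlib 3.10.9.

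Genes named were all changed genes, the 12 protein coding genes on each side with the smallest p short of the threshold (no overlap, at least 5 CPM), from each list the 2 genes of smallest p and the 1 of highest level, the closest genes by sequence, and Sync. Xist, Y-linked and haemoglobin genes were named as checks of the libraries. Neighbours within 500 kb, Chek1 and Gphn were named after their values were seen. The comparison, its members and the lists were chosen with earlier results of these data known. Alternatives were other scalings and filters, robust fitting, DESeq2 1.42.0, the e13.5 libraries alone, the replicate number as a term, removal of haemoglobin, ribosomal and mitochondrial RNA, and each library left out.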

Additional observations from a re-analysis of the deposited data

How the results depend on the processing

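The 12 changed genes all kept their call under median-of-ratios and upper quartile scaling, without a filter on low counts and with DESeq2. Of the 12, 11 did so with a filter of 5 CPM, with robust fitting and without haemoglobin, ribosomal and mitochondrial genes, Serpina3h being the exception each time. Counts of calls moved more: genes higher in KO were 32 without a filter, 16 with DESeq2 and 5 in the 4 e13.5 libraries alone, and genes lower in KO were 4 with median-of-ratios scaling, 55 without a filter, 13 with DESeq2 and 0 in the 4 libraries alone. With families summed, 18 genes were higher without a filter and 5 with DESeq2, and genes lower were 53 without a filter, 11 with DESeq2 and 1 with either other scaling. The interaction test called 30 genes without a filter and 7 with DESeq2. Leaving out each e13.5 library in turn gave 6 to 11 higher genes, 1 to 25 lower genes and 0 to 5 interaction calls, and 0 higher and 0 to 14 lower genes with families summed; where a group keeps 1 library, that library is assumed to vary like the other groups.

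Replicate numbers are shared by the genotypes, but the labels do not say what they mark. The difference between library 1 and library 2 correlated at 0.5516 across genes between WT and KO. With a replicate block for the e13.5 libraries 12 genes were higher and 3 lower, including all 12 changed genes and Wdfy1 (adjusted p = 0.0271, edgeR), and the interaction test called 1 gene. With families summed, 1 gene was lower with this block. With a block shared by both ages the counts were 10 and 2. With the block in the 4 e13.5 libraries alone they were 3 and 0.

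Fold changes on the log2 scale that turned sign were close to 0 or rested on 1 library, and none of them belonged to a changed gene. Tuba1b turned to 0.096 with median-of-ratios scaling, 0.031 with upper quartile scaling, 0.017 without a filter and 0.095 with DESeq2. Leaving out 1 library at a time moved the fold change over a range of -3.16 to 0.047 for Cdkn1c, -2.55 to 0.45 for Fn1, -0.17 to 0.56 for Gpc3, -1.17 to 0.025 for Gphn, -0.35 to 1.29 for Hprt, -0.85 to 1.16 for Lyz2. The range was -0.29 to 0.72 for Mocs2, -0.15 to 0.95 for Mospd1, -2.36 to 0.71 for Myh7, -1.59 to 0.79 for Phf6, -0.29 to 0.69 for Rpl15, -0.75 to 0.085 for Rps3a1. It was -1.97 to 0.019 for Slc8a1, -1.23 to 1.003 for Sync, -0.47 to 0.58 for Tuba1b, -0.42 to 0.67 for Tuba1c, -2.59 to 0.19 for Vcl. The cause was not tested.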

Other observations

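At e13.5 some genes had estimated counts in 1 genotype and 0 in the other. With at least 20 counts in each library of the other genotype, 7 genes had 0 counts in both KO libraries at e13.5 and 7 had 0 counts in both WT libraries. The genes at 0 in KO were C430049B03Rik, Hist1h4m, a histone H4 gene, Duxbl3, a double homeobox gene, the noncoding 2610507I01Rik and Gm28875, the pseudogene Gm10039 and the predicted protein coding gene Gm16867. Gm16867 was at 2.996 and 7.71 CPM in WT at e13.5 and at 3.78 and 4.48 CPM in adult WT, and at 0 in all KO libraries. The noncoding 2610507I01Rik was at 3.41 and 3.92 CPM in WT at e13.5 and 6.17 and 6.13 CPM in adult WT, with 0.133 CPM in 1 adult KO library and 0 in the other KO libraries. Gm28875 was at 1.22 and 1.24 CPM in adult WT and at 0.791 and 1.19 CPM in adult KO. Of the 7 genes at 0 in WT, 6 were pseudogenes, and Hist2h3c1, a histone H3 gene, was the other. Among the pseudogenes were Gm10020 and Mrpl48-ps, the latter at 5.06 and 2.93 CPM in KO. Gm7901 was at 7.88 and 4.27 CPM in KO at e13.5 and at 0 in all adult libraries. In adults, 5 of the 7 genes at 0 in KO and 6 of the 7 at 0 in WT stayed at 0 in that genotype. Among those at 0 in KO, however, Hist1h4m, Duxbl3, C430049B03Rik and Gm10039 were also at 0.413 CPM or less in each adult WT library. For these genes, and for Gm7901, a 0 in adults says little about genotype. Apart from C430049B03Rik and Gm10020, these genes were not searched for near-identical copies. Whether their reads were divided between copies was not tested. They were picked by their counts, so no test is given for them as a set.

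Stress and immune response genes gave a mixed picture. Klf2, a transcription factor induced by blood flow in endothelium, was at 5.48 and 4.06 CPM in WT and 2.0 and 1.90 CPM in KO, without overlap (log2 fold change -1.29 ± 0.44, adjusted p = 1, edgeR). Hspb1, a small heat shock protein, was at 1236 and 745 CPM in WT and 672.3 and 660.8 CPM in KO. Of the 25 immediate early and heat shock genes tested, 10 had positive and 15 negative fold changes, with a median of -0.10. Without overlap, 3 were higher and 2 lower in KO. The median ratio was -0.46 within the first library number and 0.24 within the second. Hspa8, the list's most abundant gene, was at 3592 and 1966 CPM in WT and 3842 and 2425 CPM in KO. Rsad2, an interferon-induced antiviral enzyme, was at 3.55 and 4.48 CPM in WT and 9.0 and 6.09 CPM in KO, while the 25 interferon response genes had 11 positive and 14 negative fold changes. Id3, a target of BMP signalling, was at 249 and 203.3 CPM in WT and 276.3 and 315.5 CPM in KO, and of 36 BMP, Notch and Wnt genes 11 were positive and 25 negative, with a median of -0.20, which was 0.25 without WT library 2, 0.07 without KO library 1 and -0.77 without KO library 2. None of the genes in these lists passed the test.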
